A study of Mus musculus with 4 samples.

Results

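The genes described here are 29 members of the cellular response to low oxygen and of glycolysis, out of 55450 genes in the deposited count matrices. They were picked by symbol, from what they are known to do, with earlier results of these data known, and each was found in all 4 matrices. Their positions are those of the GENCODE M21 annotation of the mouse build GRCm38, for example Hif1a at chr12:73901375-73947530, Slc2a1 at chr4:119108711-119137983 and Ldha at chr7:46841475-46855627, all protein-coding.

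RNA was sequenced from single cells of the mid-colon of mice 7 weeks old and of specified-pathogen-free (SPF) status. The control group (2 libraries) drank clean water, and the treated group (2 libraries) drank 3% dextran sulfate sodium (DSS), a polymer that injures the colon epithelium, for 2 days. Strain, sex and the number of mice behind a library are not stated in the labels, and no genetic change is named for either group. For DSS against control within a set of cells, the p-values below therefore measure the spread between libraries, which may be technical. Contrasts between sets of cells, and their differences between the groups, had the library as a term. Their p-values measure the spread that remains once the level of each library is taken out, which may be technical too.

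Cells that lack oxygen keep the transcription factor subunit HIF-1α, the product of Hif1a, because the prolyl hydroxylases that mark it for breakdown need oxygen. HIF then binds DNA at short elements with the core letters ACGTG or GCGTG and raises the transcription of glucose carriers, of nearly every enzyme of glycolysis and of genes such as Bnip3, Vegfa and Egln3. The lining of the colon is a well-known site of this response: oxygen falls from the crypt base, which lies near the blood vessels, toward the luminal surface, which faces an almost oxygen-free gut content. Glycolysis itself turns glucose into pyruvate, and lactate dehydrogenase and the monocarboxylate carriers dispose of pyruvate as lactate.

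Because most members moved together along the crypt, as described below, the DNA just upstream of some of their start sites is shown first, taken from RefSeq for the build GRCm38.p6. The 6 windows below are the 250 bases before an annotated start, in the direction of transcription, with ACGTG and GCGTG in capitals on either strand (CACGT and CACGC are their reverse complements). They were chosen after the values were seen, among windows that hold no base of an annotated exon: 5 from members that rose toward the surface, 4 with matches and that of Hk1 with none, and that of Mif, which fell.
Hk2: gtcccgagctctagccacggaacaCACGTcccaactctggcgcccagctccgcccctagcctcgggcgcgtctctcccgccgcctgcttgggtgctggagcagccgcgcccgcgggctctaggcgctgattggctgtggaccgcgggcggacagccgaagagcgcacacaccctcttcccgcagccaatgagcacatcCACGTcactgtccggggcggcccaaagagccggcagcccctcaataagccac
Egln3: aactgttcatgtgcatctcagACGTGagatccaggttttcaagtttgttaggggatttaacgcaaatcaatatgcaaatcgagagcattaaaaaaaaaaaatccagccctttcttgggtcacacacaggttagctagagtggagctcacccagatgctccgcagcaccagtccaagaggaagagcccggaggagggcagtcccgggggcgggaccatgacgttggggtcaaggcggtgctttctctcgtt
Hif1a: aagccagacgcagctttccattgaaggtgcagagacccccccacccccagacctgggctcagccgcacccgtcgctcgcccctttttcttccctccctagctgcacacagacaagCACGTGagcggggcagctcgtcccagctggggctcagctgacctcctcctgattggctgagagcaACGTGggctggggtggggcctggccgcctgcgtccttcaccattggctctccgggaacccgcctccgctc
Ldha: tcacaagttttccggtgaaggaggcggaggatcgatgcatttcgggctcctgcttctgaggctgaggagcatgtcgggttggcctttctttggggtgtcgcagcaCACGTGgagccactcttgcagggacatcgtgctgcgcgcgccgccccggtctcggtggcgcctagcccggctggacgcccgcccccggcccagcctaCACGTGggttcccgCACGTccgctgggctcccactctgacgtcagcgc
Hk1: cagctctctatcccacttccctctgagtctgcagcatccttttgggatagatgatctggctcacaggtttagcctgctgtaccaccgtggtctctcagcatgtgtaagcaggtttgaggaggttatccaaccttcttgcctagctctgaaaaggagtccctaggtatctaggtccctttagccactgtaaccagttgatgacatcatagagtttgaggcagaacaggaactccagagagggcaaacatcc
Mif: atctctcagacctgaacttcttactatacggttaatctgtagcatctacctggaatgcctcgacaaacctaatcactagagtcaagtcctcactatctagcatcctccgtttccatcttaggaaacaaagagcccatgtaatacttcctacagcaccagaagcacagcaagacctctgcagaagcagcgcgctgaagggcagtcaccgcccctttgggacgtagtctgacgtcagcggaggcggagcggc
The Hk2 window (chr6:82774455-82774704, minus strand) holds 2 matches, which begin 226 and 52 bases before the start. That of Egln3 (chr12:54203875-54204124, minus strand) holds 1 match at 229 bases, and that of Hif1a (chr12:73907617-73907866, plus strand) holds 3. A palindrome CACGTG counts as 2 matches, 1 on each strand, and the Ldha window (chr7:46845554-46845803, plus strand) holds 2 such palindromes among its 5 matches. The windows of Hk1 (chr10:62379909-62380158, minus strand) and Mif (chr10:75860278-75860527, minus strand) hold none, and neither does 1 of the 2 windows of Vegfa (chr17:46032378-46032627, minus strand), which also rose. The other window of Hk1 holds 3 matches and that of Vegfa 2, and both lie mostly in annotated exons (186 and 218 of 250 bases). The only listed windows of Tpi1 and Gpi1, which also rose, hold none. Those of P4ha2 and Ddit4, not called in the gradient of either group, hold 3 and 2 matches. The P4ha2 window holds no base of an annotated exon. RefSeq listed 36 windows for 26 of the 29 members, some of them overlapping, and Slc2a3, Bnip3l and Ndrg1 had no entry. At least 1 of the motifs stood in 28 of the 36 windows (77.8%), against 38.6% of 32851 windows of the same length over all genes. ACGTG alone was in 52.8% of the members' windows and 16.6% of all windows, and GCGTG in 50% and 28.2%. The members' windows were also richer in G and C, with a median of 63.4% against 52.4%. Such a match describes letters only.

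The 4 libraries, called control 1, control 2, DSS 1 and DSS 2, gave 9021, 10244, 11522 and 11564 kept cells with median depths of 4729 to 6297.5 UMIs (unique molecular identifiers, one per captured RNA molecule). The epithelial share of kept cells was 58.2% and 55.6% in the control libraries and 12.3% and 31.7% in the DSS libraries, so many epithelial values for DSS 1 rest on few cells. Clusters were named from marker genes with all 29 members left out of the clustering, and a class name means cells like that type by these markers. Levels are given as CPM, the UMIs of a gene per 1000000 UMIs of the summed cells of a class in 1 library. Fold changes come from edgeR's quasi-likelihood test on those sums with p-values adjusted by the Benjamini-Hochberg method over all genes tested and a threshold of 0.05. The edgeR normalization (TMM) adds to the raw ratio: its log2 factor, surface minus crypt, was -0.90 to -0.48 over the libraries, which raises surface over crypt by that amount against plain UMI totals, and 0.20 to 0.58 for stromal or immune minus epithelial, which lowers those contrasts. With plain totals 19.9% of all genes were called higher and 54.9% lower at the control surface, and of the members 22 and 2. How reads were assigned between a gene and one that overlaps it on the other strand, such as Hk1 with Hk1os, was not checked. Pairs of libraries shared 36 to 52 cell barcodes.

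Along the colon crypt, most of the pathway rose from the base to the surface, in both groups. Epithelial cells of the absorptive lineage and the crypt were scored by landmark genes of crypt and surface, none of them a member, and split into 4 ranges from crypt (range 1) to surface (range 4). In control libraries 25 of the 28 members tested were higher in range 4 than in range 1 and 1 was lower, at a background of 34.1% of all 14626 genes called higher and 37.8% called lower (72% in either direction). The members' median log2 fold change was 2.26, against -0.08 over all genes. In the DSS libraries the counts were again 25 higher and 1 lower, at a background of 23% higher and 24.4% lower, with a median of 2.16. Slc2a3 did not pass the filter on low counts in the epithelium. Without any filter 25 of 29 were higher in control. The plain CPM of range 4 exceeded that of range 1 in 4 of 4 libraries for 22 of the 29 members, against 17.7% of all genes tested, and 10 members rose at each of the 3 steps in 4 of 4 libraries, against 3.02%. These 10 were Slc2a1, Slc16a3, Hk2, Pfkp, Tpi1, Gapdh, Pkm, Ldha, Bnip3 and Egln3.

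**Figure D1:**
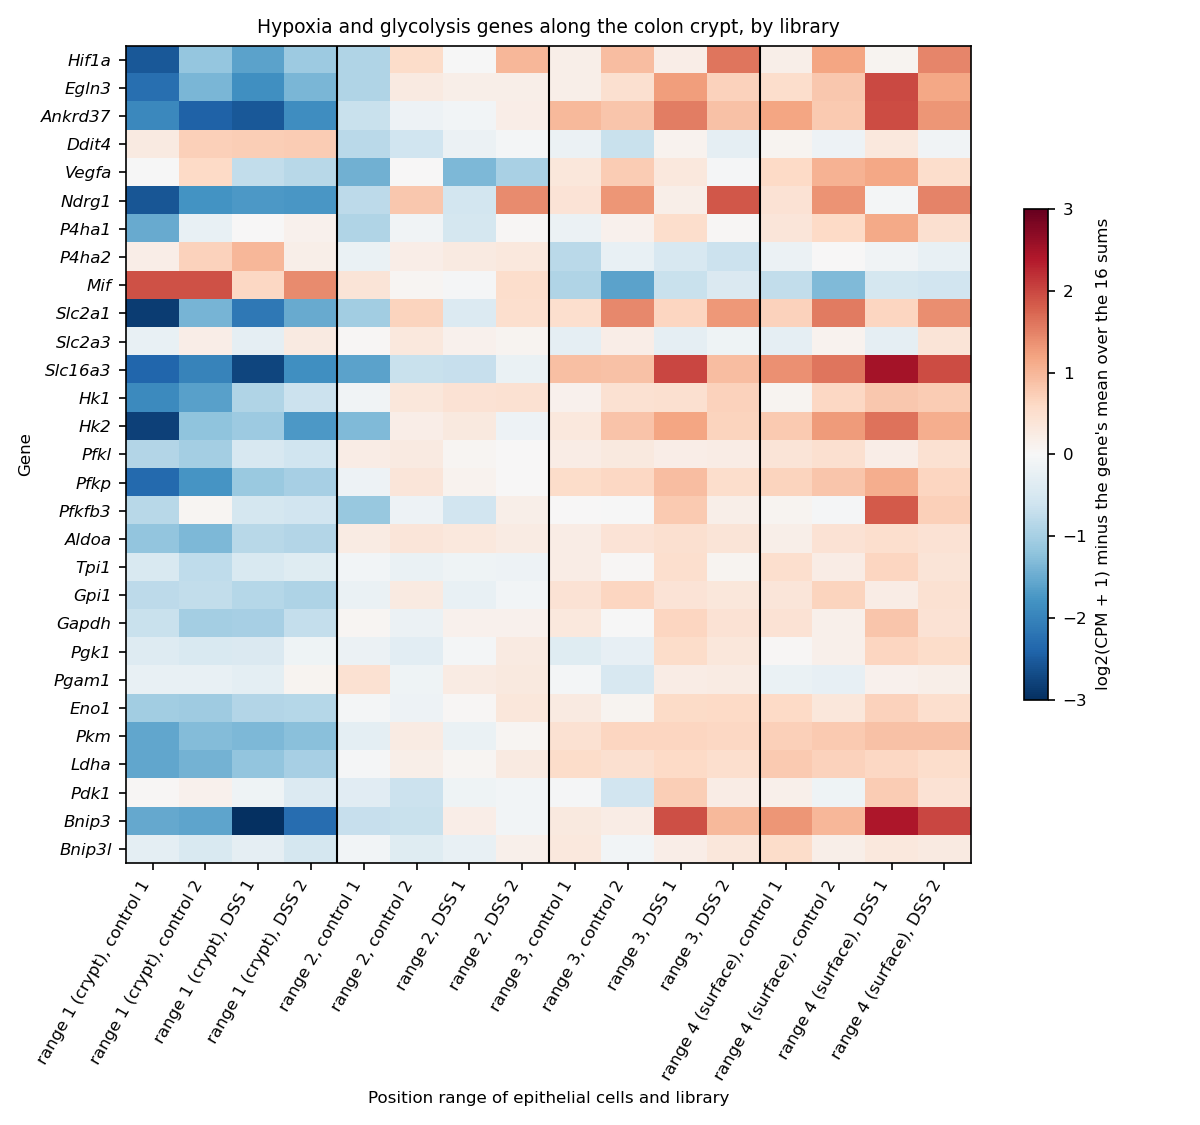
Levels of the 29 genes (rows) in the 4 position ranges of epithelial cells, from crypt (range 1) to surface (range 4), with 1 column for each of the 4 libraries in each range. Color gives log2(CPM + 1) minus the gene's own mean over the 16 sums. Most rows turn from blue at the left to red at the right, and Mif turns the other way.

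Other properties also changed along the same axis. The median share of mitochondrial UMIs was 3.63%, 4.09%, 6.61% and 3.24% in range 1 of control 1, control 2, DSS 1 and DSS 2, and 15.7%, 11.7%, 16.2% and 7.80% in range 4. Median depth was 15047.5 to 16546 UMIs per cell in range 1 and 5446 to 12170 in range 4. The summed level of 14 genes of dissociation stress was 5423, 8202, 6440.2 and 6965 CPM in range 1 and 7606, 10159, 8563 and 6237 CPM in range 4. Restricting the cells to at most 15% mitochondrial UMIs left 24 members higher and 1 lower in control. The part of depth and of stress genes in these differences was not tested.

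Carriers of glucose and lactate showed steep gradients. Slc2a1 encodes GLUT1, the basal glucose carrier. In range 1 it stood at 13.2, 38.1, 21.96 and 34.9 CPM in control 1, control 2, DSS 1 and DSS 2, and in range 4 at 164, 301, 159 and 268 CPM. Every surface value lay far above every crypt value, with a log2 fold change of 4.09 (SE 0.20) in control (edgeR quasi-likelihood, adjusted p = 1.04e-12) and 3.59 (SE 0.23) in DSS. Slc16a3, which encodes the lactate exporter MCT4, was nearly absent from the crypt. It had 0.298, 0.688, 0 and 0.907 CPM in range 1 of the same 4 libraries and 16.4, 19.6, 37.02 and 25.4 CPM in range 4, and its control log2 fold change of 6.05 (SE 0.43) was the largest of the members. Slc2a3 (GLUT3), a glucose carrier best known from neurons and white blood cells, stayed at or below 0.572 CPM in all 16 epithelial sums.

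At the entry of glycolysis, both hexokinases rose. Hk2, the inducible hexokinase that binds mitochondria, went from 49.4, 151, 164 and 105 CPM to 599, 842, 1075 and 746 CPM between range 1 and range 4. The lowest surface value was above the highest crypt value, and the log2 fold change was 3.82 (SE 0.24) in control (edgeR quasi-likelihood, adjusted p = 2.53e-11). Hk1, the constitutive isozyme, had 24.2, 29.7, 49.9 and 60.3 CPM in range 1 and 99.5, 145, 167 and 160.1 CPM in range 4. Both DSS crypt values of Hk1 lay above both control crypt values, and no crypt value reached a surface value. Its control log2 fold change was 2.94 (SE 0.16).

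Phosphofructokinase, the committed step of glycolysis, is built from isoforms encoded by different genes. The platelet-type isoform Pfkp moved from 28.1, 41.99, 66.9 and 72.5 CPM to 230.0, 258, 311 and 229 CPM, and its control log2 fold change of 3.60 (SE 0.16) had the smallest adjusted p of all members (edgeR quasi-likelihood, 5.50e-13). The liver-type isoform Pfkl rose by 2.16 (SE 0.17) in control and 1.57 (SE 0.20) in DSS. Pfkm, the muscle-type partner and not a member, had a log2 fold change of -0.82 (SE 0.47) and missed the threshold (adjusted p = 0.125). Pfkfb3, which makes the activator fructose 2,6-bisphosphate, was scarce in epithelium, with 2.03, 1.79, 9.25 and 3.72 CPM in range 4. Its control call (log2 fold change 1.37, edgeR adjusted p = 0.0405) was lost without control 1, with plain UMI totals and with at most 15% mitochondrial UMIs, among other settings.

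Aldolase, triosephosphate isomerase and glucose phosphate isomerase complete the upper part of the pathway. Aldoa went from 375, 332, 480.2 and 461 CPM in range 1 to 1005, 1092, 1052 and 1014 CPM in range 2 and 956, 1149, 1212 and 1157 CPM in range 4. Most of the Aldoa increase lay between ranges 1 and 2. Gpi1 and Tpi1 had control log2 fold changes of 2.05 and 1.74 and DSS log2 fold changes of 1.87 and 1.56.

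In the lower part of glycolysis 7 of 7 members were called higher at the surface in both groups, with unequal sizes. Ldha, the lactate dehydrogenase subunit that favors lactate formation, stood at 317, 352, 412 and 472 CPM in range 1 and 1619, 1517, 1442 and 1353 CPM in range 4, a control log2 fold change of 3.01 (SE 0.18). Ldhb, its partner that favors pyruvate and not a member, fell by 2.89 toward the surface on the log2 scale in control. Both lactate dehydrogenase subunits thus ran in opposite directions along the crypt. Pkm, pyruvate kinase, had 179.9, 216, 211 and 223 CPM in range 1 and 881, 926, 986 and 988 CPM in range 4. Its control log2 fold change was 2.97 (SE 0.18) and its DSS value 2.82 (SE 0.19). Eno1, an enolase, had 85.2, 83.7, 94.8 and 96.1 CPM in range 1 and 268, 223, 284 and 250.5 CPM in range 4, and no crypt value reached a surface value. The sequence-alike gene Eno1b held 455 UMIs in all against 45858 for Eno1. Gapdh and Pgk1 had control log2 fold changes of 1.91 and 1.28.

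Pgam1 and Pdk1 gave the weakest rises of the enzymes in control, and both control rises rested on the normalization. Pgam1, phosphoglycerate mutase, had 168, 168, 159.7 and 207 CPM in range 1 and 172, 164, 215 and 223 CPM in range 4, so the groups of values overlapped. Its control log2 fold change of 0.79 became 0.00 with plain UMI totals, and with these its DSS value was 0.25. Pdk1, the kinase that blocks entry of pyruvate into mitochondria, had 23.8, 25.5, 20.96 and 17.2 CPM in range 1 and 25.7, 21.1, 39.7 and 31.5 CPM in range 4. Its control value of 0.70 turned to -0.08 with plain totals, while the DSS value was 1.55 and stayed at 0.88 or more in each alternative setting.

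Among the HIF factor and its feedback genes, 3 of 4 members rose. Hif1a itself rose from 29.4, 78.1, 57.9 and 82.5 CPM in range 1 to 199, 403, 186 and 489 CPM in range 4, with log2 fold changes of 3.34 (SE 0.22) in control and 2.87 (SE 0.25) in DSS. The gene encodes a factor that is mainly controlled through its protein, and protein was not measured. Egln3, the oxygen-sensing hydroxylase that HIF induces, stood at 4.22, 8.65, 5.99 and 8.61 CPM in range 1 and 34.9, 42.5, 97.8 and 54.6 CPM in range 4. Ankrd37, a small ankyrin-repeat gene known as a HIF target, moved from 5.15, 3.34, 2.99 and 5.44 CPM to 52.5, 39.6, 89.9 and 57.2 CPM, a control log2 fold change of 4.11 (SE 0.27). None of their crypt values reached a surface value. Ddit4, an inhibitor of mTORC1 signaling also induced by glucocorticoids and stress, was the exception. Its CPM was 35.4, 48.6, 49.9 and 50.8 in range 1, 16.3, 19.2, 25.7 and 28.4 in range 2 and 31.2, 26.3, 37.02 and 27.5 in range 4, higher in the crypt in 4 of 4 libraries. The fitted control log2 fold change was 0.24 (SE 0.18) and missed the threshold (edgeR adjusted p = 0.233), but with plain UMI totals it was called lower at -0.55.

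Both mitophagy receptors rose. Bnip3, which tags mitochondria for removal when oxygen is low, had 2.98, 2.85, 0 and 1.36 CPM in range 1, 6.09, 6.23, 12.2 and 9.94 in range 2, 13.1, 12.3, 43.3 and 21.5 in range 3 and 27.8, 22.1, 60.8 and 44.9 in range 4. The crypt values of the DSS libraries are 0 and 3 UMIs, so the fitted DSS log2 fold change of 6.39 (SE 0.45) depends on the prior count and is no bound. In control it was 3.83 (SE 0.23). Bnip3l, also named Nix, also rose, with control and DSS log2 fold changes of 1.52 and 1.36.

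Secreted and matrix-related members went separate ways. Ndrg1, a growth-arrest and differentiation gene induced by hypoxia, stood at 18.4, 31.96, 33.9 and 33.1 CPM in range 1 and 154, 293, 109.7 and 320.0 CPM in range 4, a control log2 fold change of 3.89 (SE 0.30). Vegfa, the angiogenic factor, fell before it rose: its control values were 54.1 and 82.7 CPM in range 1, 19.3 and 54.5 in range 2 and 82.7 and 113 in range 4. The drop from range 1 to range 2 was called, at a log2 fold change of -0.71. P4ha1, a subunit of the collagen prolyl hydroxylase, rose by 2.20 in control, and its partner P4ha2 was at or below 3.99 CPM in all 16 epithelial sums with no call. Mif, a cytokine that HIF can induce, ran against the rest. It had 411, 408, 167 and 291 CPM in range 1, 142, 113, 106 and 157 in range 2 and 64.4, 43.01, 75.4 and 73.2 in range 4, and it fell by 2.18 on the log2 scale in control and by 1.00 in DSS. The DSS fall missed the threshold without DSS 2 (-0.64, adjusted p = 0.127) and with quartiles within each library (-0.80, adjusted p = 0.123). No surface value of Mif reached a crypt value in any library.

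**Figure D2:**
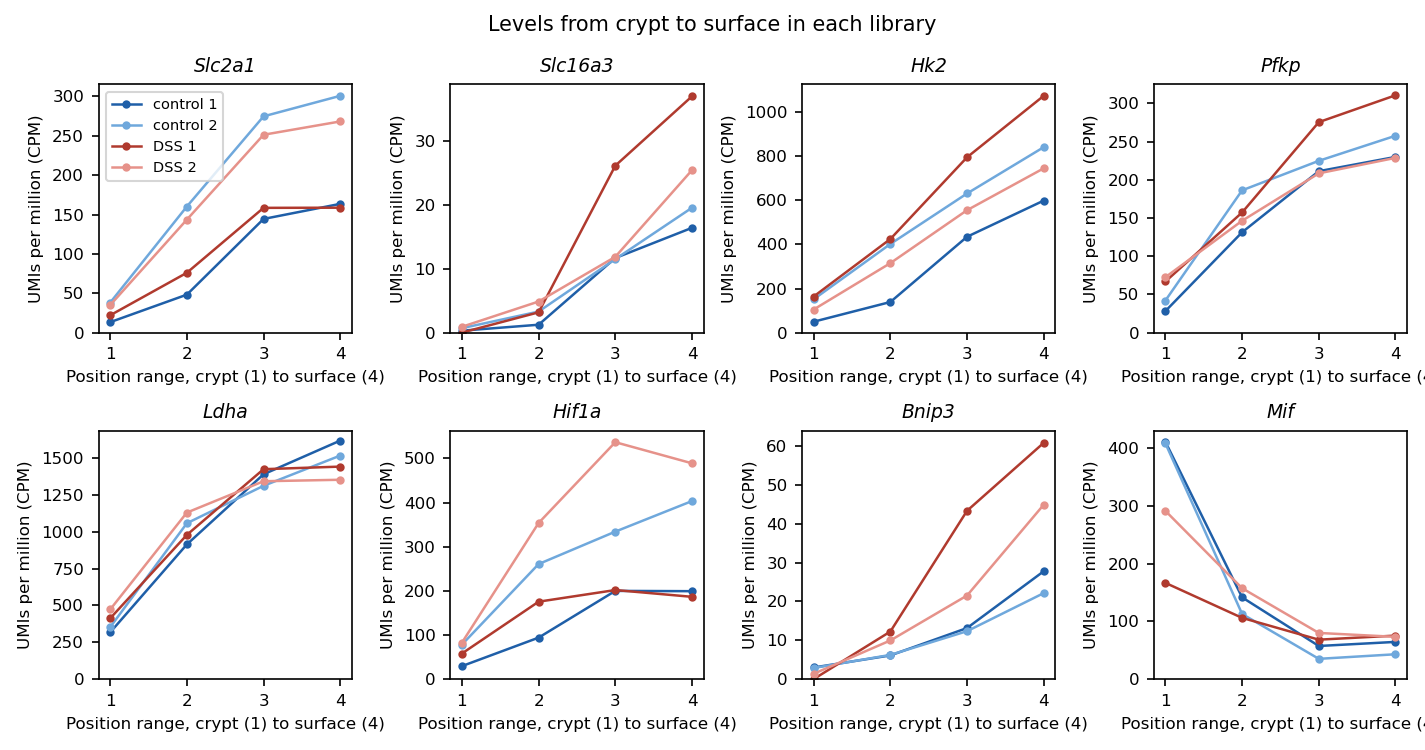
Level of 8 genes (CPM, linear axes that start at 0) in position ranges 1 (crypt) to 4 (surface), with 1 line for each library: blue for control 1 and 2, red for DSS 1 and 2. Slc2a1, Slc16a3, Hk2, Pfkp, Ldha, Hif1a and Bnip3 end higher than they begin in each library, and Mif ends lower.

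The order of the increases differed between members. Against range 1, range 2 already had 22 of 28 members higher and 3 lower in control (background 26.1% of genes higher and 27.9% lower). The 3 that fell were Mif, Ddit4 and Vegfa. Hk1 and Aldoa had most of their control CPM increase behind them in range 2, whereas Slc16a3 and Bnip3 increased mainly after it. In control libraries Hk1 had 87.7 and 119 CPM in range 2 and 99.5 and 145 in range 4, and Slc16a3 had 1.23 and 3.29 CPM in range 2 and 16.4 and 19.6 in range 4. These contrasts in shape are descriptions and were not tested.

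Other genes of the pathway were tested in the same fit, where 34.1% of all genes were higher and 37.8% lower. Of 30 other known hypoxia targets, 21 were higher and 5 lower at the surface in control, with a median log2 fold change of 1.48. Ak4, a mitochondrial adenylate kinase, had 0.522, 1.47, 0.998 and 1.81 CPM in range 1 and 83.7, 65.1, 241 and 122 CPM in range 4, and Adm, the vasodilator adrenomedullin, had 1.27, 10.1, 2.99 and 30.4 CPM in range 1 and 30.6, 192, 18.5 and 209.9 CPM in range 4. The log2 fold changes in control were 7.20 for Ak4, 5.22 for Adm and 3.46 for Higd1a, a mitochondrial hypoxia-induced protein. Of 12 tested enzymes and carriers of glycolysis outside the members, 7 were higher and 1 lower. Eno3, the muscle-type enolase, led them with 4.22, 7.08, 0.998 and 3.63 CPM in range 1 and 156, 178, 328 and 263 CPM in range 4. Among 11 tested regulators of HIF, 7 were higher and 2 lower, led by Epas1, which encodes HIF-2α (2.497). Of 5 tested genes of gluconeogenesis 2 were higher and 3 lower in control, and G6pc3, a glucose-6-phosphatase, fell by 3.19 on the log2 scale. Pyruvate entry and oxidation had 5 of 12 genes higher and 4 lower, counts near those shares, and the monocarboxylate carriers 3 of 5 higher and 1 lower.

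Whether the gradient itself differed between DSS and control was tested with an interaction term. Only 2 of 28 members passed, 1 higher and 1 lower, at a background of 0.561% of genes higher and 1.62% lower. The members' median difference was -0.18 on the log2 scale. Mif had a shallower fall in DSS, with a difference of 1.19 (SE 0.24, edgeR quasi-likelihood, adjusted p = 0.0119). Its crypt level was 411 and 408 CPM in control and 167 and 291 CPM in DSS, and its surface level 64.4 and 43.01 CPM in control and 75.4 and 73.2 CPM in DSS, so the groups did not overlap at either end. Pfkp had a shallower rise in DSS, with a difference of -1.06 (SE 0.23, edgeR adjusted p = 0.0177). Its crypt level was 28.1 and 41.99 CPM in control and 66.9 and 72.5 CPM in DSS, while its surface levels overlapped between the groups.

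Bnip3 and Hk1 came next and missed the threshold. For Bnip3 the difference was 2.56 (SE 0.68) with an edgeR adjusted p of 0.0553, and it rests on the 0 and 3 UMIs of the DSS crypt sums. Its surface values were 27.8 and 22.1 CPM in control and 60.8 and 44.9 CPM in DSS. For Hk1 the difference was -0.74 (SE 0.24, edgeR adjusted p = 0.119). Immune markers in range 1 summed to 297 and 1052 CPM in control and 5037 and 604 CPM in DSS, and their part in these differences was not tested. The DSS ends of the gradient hold few cells, 61 and 126 in range 1 and 57 and 369 in range 4. Without DSS 1 the edgeR adjusted p was 0.208 for Mif and 0.0881 for Pfkp, and without DSS 2 it was 0.0732 and 0.344. With ranges set as quartiles within each library neither passed, and with plain UMI totals Pfkp missed the threshold (-0.92, adjusted p = 0.0623). With range 3 in place of range 4, Mif, Pdk1 and Bnip3 were called higher and Pfkp lower. Outside the members, Slc16a1 (MCT1, a butyrate and lactate carrier) and Pck1 (the gluconeogenic enzyme PEPCK) had lower differences of -1.92 and -2.65, and Vldlr, a lipoprotein receptor, a higher one of 3.43. Surface Pck1 was 35.9 and 47.97 CPM in control and 11.9 and 8.86 CPM in DSS, without overlap.

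Across cell classes, most enzymes of glycolysis had their highest control mean in colonocytes, and a second set of members belonged to stroma and immune cells. Of 13 classes with at least 30 cells in both control libraries, the colonocyte had the highest mean for 16 of the 29 members. The share of all genes led by colonocytes was not computed, so this count describes the members only. Fibroblasts had the highest mean of 3 members (P4ha1, P4ha2 and Bnip3l). Innate lymphoid cells, B cells and glial cells led for 2 members each, and 4 further classes for 1 each. Ldha stood at 1329.8 ± 40.6 CPM (SD, n = 2 libraries) in control colonocytes and at 119 ± 42.9 CPM in plasma cells, its lowest class. Tpi1 stood at 511 ± 26.1 CPM in colonocytes and 324 ± 41.4 CPM in crypt progenitors, the next class, and the library values of those classes did not overlap. For 7 of the 16 members led by colonocytes (Hif1a, Slc2a1, Hk2, Pfkp, Pgam1, Eno1 and Egln3) the values of the leading and the next class overlapped. B cells came second for several enzymes, and the sums of their 139 and 33 control cells also held 6291 and 21188 CPM of 10 colonocyte markers, against 3065 and 4011 CPM in T cells. The part of such RNA from other cells in the B cell levels was not tested.

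**Figure D3:**
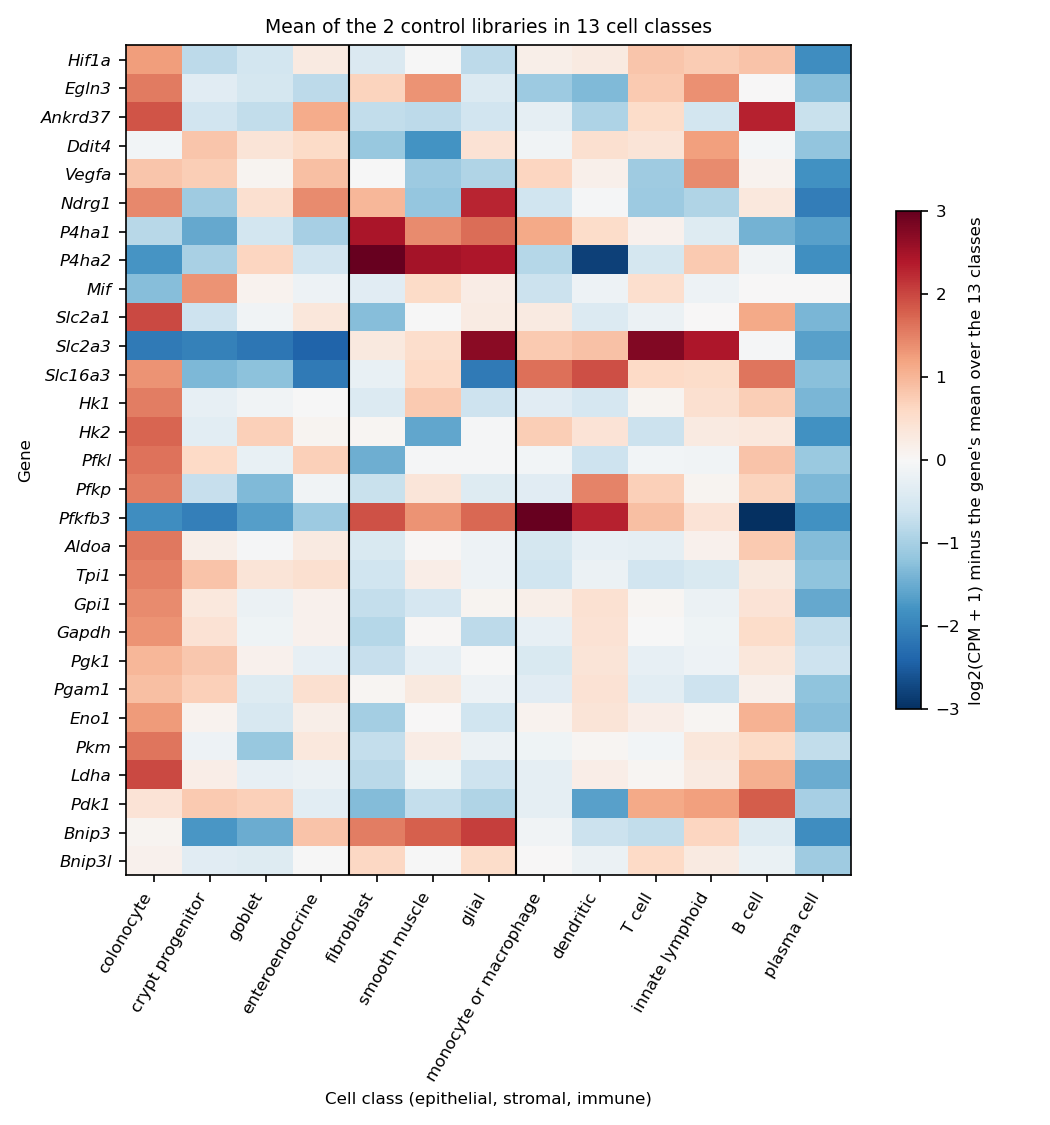
Mean of the 2 control libraries for the 29 genes (rows) in 13 cell classes (columns), as log2(CPM + 1) minus the gene's mean over the classes. Black lines part the 4 epithelial, 3 stromal and 6 immune classes. The left column, colonocytes, is red for most enzymes, while Slc2a3, Pfkfb3, P4ha1 and P4ha2 are blue there.

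Summed over compartments, 20 of 29 members were lower in stromal than in epithelial cells of the control libraries and 5 were higher, at a background of 25.5% lower and 29.7% higher among 19464 genes. The members' median log2 fold change was -1.42, against 0.06 over all genes. Immune against epithelial cells gave 15 members lower and 3 higher, at 23.2% lower and 20.1% higher, with a median of -1.16 against -0.14 over all genes. With plain UMI totals 6 members were higher and 16 lower in stroma, where all genes gave 37.9% and 17.9%, and 3 and 12 in immune cells, where all genes gave 27.4% and 15.4%. The epithelial sums hold cells of all positions, 5246, 5697, 1413 and 3671 in the 4 libraries. Clusters left without a name held 4.7% to 7.4% of the kept cells of a library and were in no compartment sum. The largest were cluster 11 (1447 cells, led by Pln and Rergl) and cluster 20 (623 cells, led by Rprm). Notch3, a pericyte marker used here, was among the leading genes of cluster 11, which is not in the pericyte class. Markers of 55 stromal genes summed to 320 to 516 CPM in the epithelial sums and 35919 to 39392 CPM in the stromal sums. Immune markers (62 genes) summed to 318, 1535, 4456 and 979 CPM in the epithelial sums of control 1, control 2, DSS 1 and DSS 2. In the immune sums of the same libraries they reached 12797, 10975, 16937 and 8119 CPM. The part of this shared RNA in the immune contrast was not tested.

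Pfkfb3 had the smallest p-value of all members in both compartment contrasts. It had 1.43, 2.01, 3.06 and 2.58 CPM in the epithelial sums of control 1, control 2, DSS 1 and DSS 2, 29.3, 36.9, 27.4 and 34.2 in the stromal sums and 27.9, 51.1, 31.00 and 27.3 in the immune sums. All stromal and immune values of Pfkfb3 lay above all epithelial ones, with control log2 fold changes of 3.85 (SE 0.25) and 4.06 (SE 0.25, edgeR quasi-likelihood, adjusted p = 1.11e-06 and 5.07e-06). Within the immune cells it was highest in monocytes or macrophages, at 74.1 ± 31.9 CPM (SD, n = 2 libraries), and dendritic cells followed with 43.4 ± 3.84 CPM. In the control libraries T cells had 12.5 and 18.8 CPM and innate lymphoid cells 8.94 and 13.01 CPM.

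The glucose carriers split between compartments. Slc2a3 had 0.091, 0.373, 0.278 and 0.395 CPM in epithelial, 10.3, 12.4, 11.5 and 13.2 in stromal and 20.6, 16.3, 15.5 and 15.7 in immune sums. Its log2 fold changes were 5.22 (SE 0.52) and 5.95 (SE 0.54) in control, and the lowest stromal or immune value exceeded the highest epithelial one. Slc2a1 ran the opposite way, with 41.2, 197, 72.7 and 154 CPM in epithelial, 12.95, 30.8, 17.2 and 43.7 in stromal and 23.7, 74.6, 25.5 and 60.7 in immune sums. Epithelium was the highest compartment within each of the 4 libraries, with log2 fold changes of -2.63 (SE 0.29) for stroma and -1.57 (SE 0.28) for immune cells, although values of different libraries overlapped across compartments.

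T cells had the highest mean Slc2a3 of the 13 classes, at 40.04 and 30.3 CPM in control and 23.4 and 19.3 CPM in DSS. Glial cells followed with 23.3 and 43.6 CPM in the control libraries and 11.9 and 23.2 CPM in the DSS libraries, overlapping with T cells. Fibroblasts had 4.83 and 6.19 CPM in the control libraries and 8.78 and 8.72 CPM in the DSS libraries. Classes with fewer cells reached higher levels: pericytes had 54.5, 213, 58.7 and 380.0 CPM in 22, 88, 44 and 12 cells, and neurons 114, 149.6, 95.4 and 116 CPM in 35, 8, 34 and 40 cells. Enteroendocrine cells, an epithelial class, had 0 UMIs of Slc2a3 in each library.

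The collagen hydroxylase subunits were stromal. P4ha1 had 11.3, 19.8, 16.3 and 19.2 CPM in epithelial, 129, 188, 142 and 190.4 in stromal and 33.6, 59.5, 39.2 and 49.7 in immune sums, a stromal log2 fold change of 2.95 (SE 0.20, edgeR adjusted p = 1.64e-06). P4ha2 had 3.22, 2.91, 2.47 and 2.403 CPM in epithelial, 42.4, 65.1, 34.8 and 50.04 in stromal and 2.68, 4.65, 3.46 and 3.45 in immune sums, and its stromal log2 fold change was 3.68 (SE 0.26). The stromal values of both stood apart from all others, and only P4ha1 was also called higher in immune cells, at 1.15. Among matrix-related hypoxia targets outside the members, Plod2, a lysyl hydroxylase, and Lox and Loxl2, lysyl oxidases, had stromal log2 fold changes of 7.38, 7.03 and 7.22. Eno2, the neuron-type enolase, was also higher in stroma, by 5.82, in a compartment that holds glial cells and neurons.

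Bnip3 was the fifth member higher in stroma, with 6.57 and 11.3 CPM in epithelial and 51.4 and 30.1 CPM in stromal control sums. Its log2 fold change was 1.73 (SE 0.38) and without control 1 it was 0.76, with an adjusted p of 0.103. Ndrg1 separated stroma from immune cells: it had 99.8, 209, 94.04 and 366 CPM in stromal and 19.9, 78.7, 19.7 and 107 CPM in immune sums. Within each library the stromal level was the higher of these. Against epithelium its log2 fold change was -2.02 (SE 0.27) in immune cells, a lower call, and -0.16 (SE 0.25) in stroma, which missed the threshold. Glial cells had the highest mean Ndrg1 of the 13 classes, 358 ± 59.00 CPM (SD, n = 2 libraries).

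**Figure D4:**
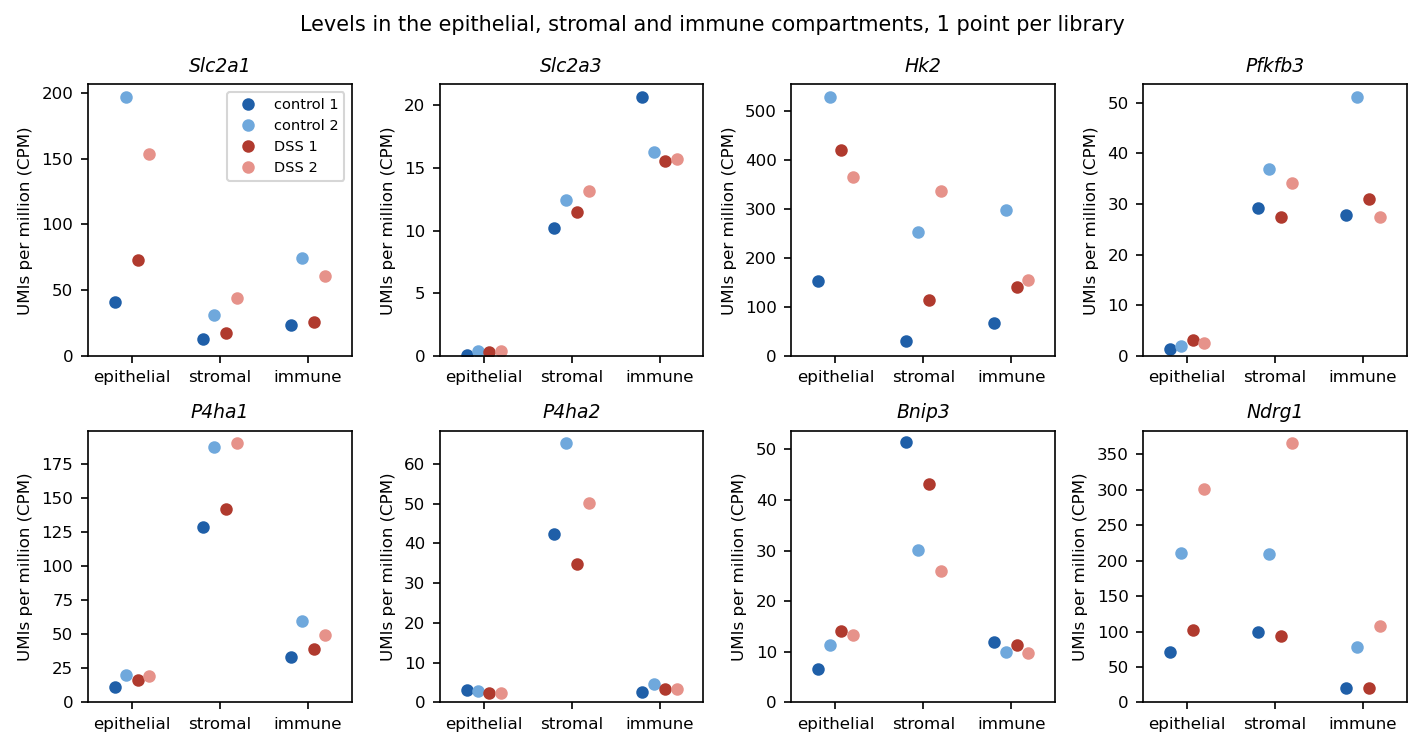
Level of 8 genes (CPM, linear axes that start at 0) in the summed epithelial, stromal and immune cells, with 1 point for each library: blue for control, red for DSS. Slc2a3, Pfkfb3, P4ha1 and P4ha2 lie near 0 in epithelium, and Slc2a1 and Hk2 are spread widely between libraries.

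The enzymes of glycolysis carried most of the lower calls. Pfkl, Pdk1 and Tpi1 had the smallest p-values among them in stroma. Pfkl had 62.8, 94.1, 73.9 and 86.8 CPM in epithelial and 17.1, 16.6, 21.1 and 19.01 CPM in stromal sums, and Tpi1 had 367, 423, 386 and 422 CPM in epithelial and 142, 117, 126 and 121 CPM in stromal sums. The epithelial values of both exceeded every stromal value, with log2 fold changes of -2.62 (SE 0.26) and -2.04 (SE 0.23). Pdk1 had 22.02, 18.9, 21.4 and 22.6 CPM in epithelial and 7.43, 4.74, 7.06 and 6.09 CPM in stromal sums (log2 fold change -2.19, SE 0.23), but in immune cells it had 21.4, 20.04, 19.3 and 18.1 CPM and no call.

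In immune cells the leading lower calls were Tpi1, Ndrg1, Pfkl, Pgk1, Ldha and Aldoa. Immune Tpi1 was 128, 133, 113 and 139 CPM (-2.02, SE 0.23), and immune Pfkl 32.9, 35.7, 29.9 and 36.5 CPM (-1.60, SE 0.25), and both stayed below their epithelial values. Pgk1 had 105, 118, 131 and 190.0 CPM there against 199, 239.5, 236 and 326 CPM in epithelium, a log2 fold change of -1.40 (SE 0.22). Ldha had 307, 395, 281 and 432 CPM against 582, 1051, 815 and 1074 CPM (-1.60, SE 0.26), and Aldoa 254, 379, 273 and 326 CPM against 583, 922, 856 and 958 CPM (-1.68, SE 0.28). For each of these 3 genes the highest immune value was below the lowest epithelial value. Immune cells held an isozyme of their own outside the members: Hk3, a hexokinase of myeloid cells, had 8.79, 9.58, 12.8 and 17.9 CPM in immune sums and 0, 0.015, 0.278 and 0.111 CPM in epithelial sums. Emb, the chaperone of monocarboxylate carriers, was also higher in immune cells (8.11), and Pck1 and Fbp2, genes of gluconeogenesis, and Slc5a8, a butyrate carrier, were lower (-3.15, -2.95 and -2.85).

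The contrast between compartments was then compared between DSS and control. No member passed in either contrast, at a background of 0.00514% of 19464 genes for stroma and 0% for immune cells. At an unadjusted p under 0.05 the count was 1 member in the stromal and 2 in the immune contrast, of 29 each, against 1274 and 1315 of the 19464 genes. The 4 pairs of member and contrast with the smallest p were Mif in immune cells (difference 0.99, SE 0.26), Pfkfb3 in immune cells (-1.12, SE 0.32), Pfkfb3 in stroma (-0.82, SE 0.32) and Vegfa in immune cells (1.28, SE 0.62), all of which missed the threshold. Immune Mif was 178 and 112 CPM in the control libraries and 170.4 and 229 CPM in the DSS libraries, with overlap. Immune Vegfa was 11.5 and 87.1 CPM in the control libraries and 26.9 and 95.6 CPM in the DSS libraries, where the libraries numbered 2 were high in both groups. Within the DSS libraries alone, 4 members were higher and 18 lower in stroma, and 4 higher and 17 lower in immune cells, at backgrounds of 33.7% and 26.3% for stroma and 25.2% and 27% for immune cells.

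Within single cell classes, 2 days of DSS changed few members past the threshold. In the 12 classes that had 30 or more cells per library, 310 pairs of member and class were tested, and 1 passed. That was Hk1 in crypt progenitors, where 0.862% of 13927 genes were called in either direction (0.388% higher). Of the other classes only plasma cells had any gene called, 0.00961% of all tested. Hk1 stood at 29.6 and 39.6 CPM in the control libraries and 68.4 and 85.9 CPM in the DSS libraries. Both DSS values lay above both control values, with a log2 fold change of 1.25 (SE 0.22, edgeR quasi-likelihood, adjusted p = 0.0461). The call was lost without control 1, control 2 or DSS 2 (edgeR adjusted p = 0.118, 0.0585 and 0.265), with plain UMI totals (0.0814) and with at most 15% mitochondrial UMIs (0.0521). In cluster 3, the larger of the progenitor clusters, taken alone, Hk1 and Pfkp both passed (log2 fold change 1.31, SE 0.23, edgeR adjusted p = 0.0192 and log2 fold change 1.05, SE 0.23, edgeR adjusted p = 0.0485), at a background of 2.03% of 12617 genes. In cluster 16, the other one, neither passed (edgeR adjusted p = 0.165 and 0.142). The class differs in make-up between the groups: at clustering resolution 2 the progenitor cluster led by Lgr5 and Ascl2, genes of crypt base stem cells, held 890 and 334 control cells and 8 and 5 DSS cells, and that led by genes of dividing cells 525 and 230 against 25 and 135. The part of this shift in the progenitor values was not tested.

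Both members next by p-value were also in crypt progenitors and missed the threshold. Pfkp stood at 36.2 and 53.4 CPM in the control libraries and 81.05 and 88.9 CPM in the DSS libraries, without overlap (log2 fold change 1.02, SE 0.22, edgeR adjusted p = 0.0854). Vegfa had 48.8 and 76.4 CPM in the control libraries and 28.6 and 27.8 CPM in the DSS libraries, again without overlap but lower in DSS (log2 fold change -1.06, SE 0.24, adjusted p = 0.0909). Each passed in 4 of 12 alternative settings. Both passed with DESeq2 (adjusted p = 0.0202 for Pfkp and 0.0224 for Vegfa), at resolution 2 (0.0222 and 0.0189) and with no filter on low counts (0.00869 and 0.00423). At resolution 2 the class is made of the progenitor clusters counted above, whose shares differ between the groups. The part of that shift in these values was not tested. Pfkp in goblet cells, the mucus-secreting class, came next, at 19.4 and 37.6 CPM in the control libraries and 52.1 and 86.1 CPM in the DSS libraries (log2 fold change 1.42, SE 0.30, edgeR adjusted p = 0.168). It passed in 3 of 12 alternative settings, among them DESeq2 (adjusted p = 0.0106) and no filter on low counts (5.3e-05). Of the 27 members tested in progenitors 22 had a positive log2 fold change, and of 28 in goblet cells 24, with medians of 0.34 and 0.60 against -0.01 and 0.00 over all genes. Goblet cells also differed in make-up, with 643, 351, 38 and 212 cells in a cluster led by B3gnt6 and Spdef and 475, 50, 305 and 137 in one led by Zg16 and Clca1 at resolution 2. The DSS 1 sums of these classes held 129 and 334 cells, and their immune markers summed to 5129 and 7581 CPM, against 278 to 1302 CPM in the control sums of the same classes. In DSS 2 the immune markers summed to 795 CPM in progenitors and 2618 CPM in goblet cells. In goblet cells both DSS libraries thus lay above both control libraries. The part of this immune RNA in the values of these classes was not tested.

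Colonocytes had 14 of 28 members above 0 and a median of -0.01, with no call and 0 of 14593 genes called at all. At an unadjusted p under 0.05 there were 1508 genes, among them 1 member, Vegfa. The class is made up differently in the groups: cluster 0 with 1007 and 2521 control cells and 117 and 309 DSS cells, and cluster 9 with 20 and 322 control cells and 150 and 1561 DSS cells. Fibroblasts (29 members tested) and monocytes or macrophages (27 tested) again had no call. Their member medians were 0.11 and 0.30, given here without the medians of all genes. Fibroblasts also differed in make-up: cluster 1, led by Ptx3 and Gfpt2, held 215 and 625 control cells and 267 and 2271 DSS cells. The part of this shift in the fibroblast values was not tested.

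**Figure D5:**
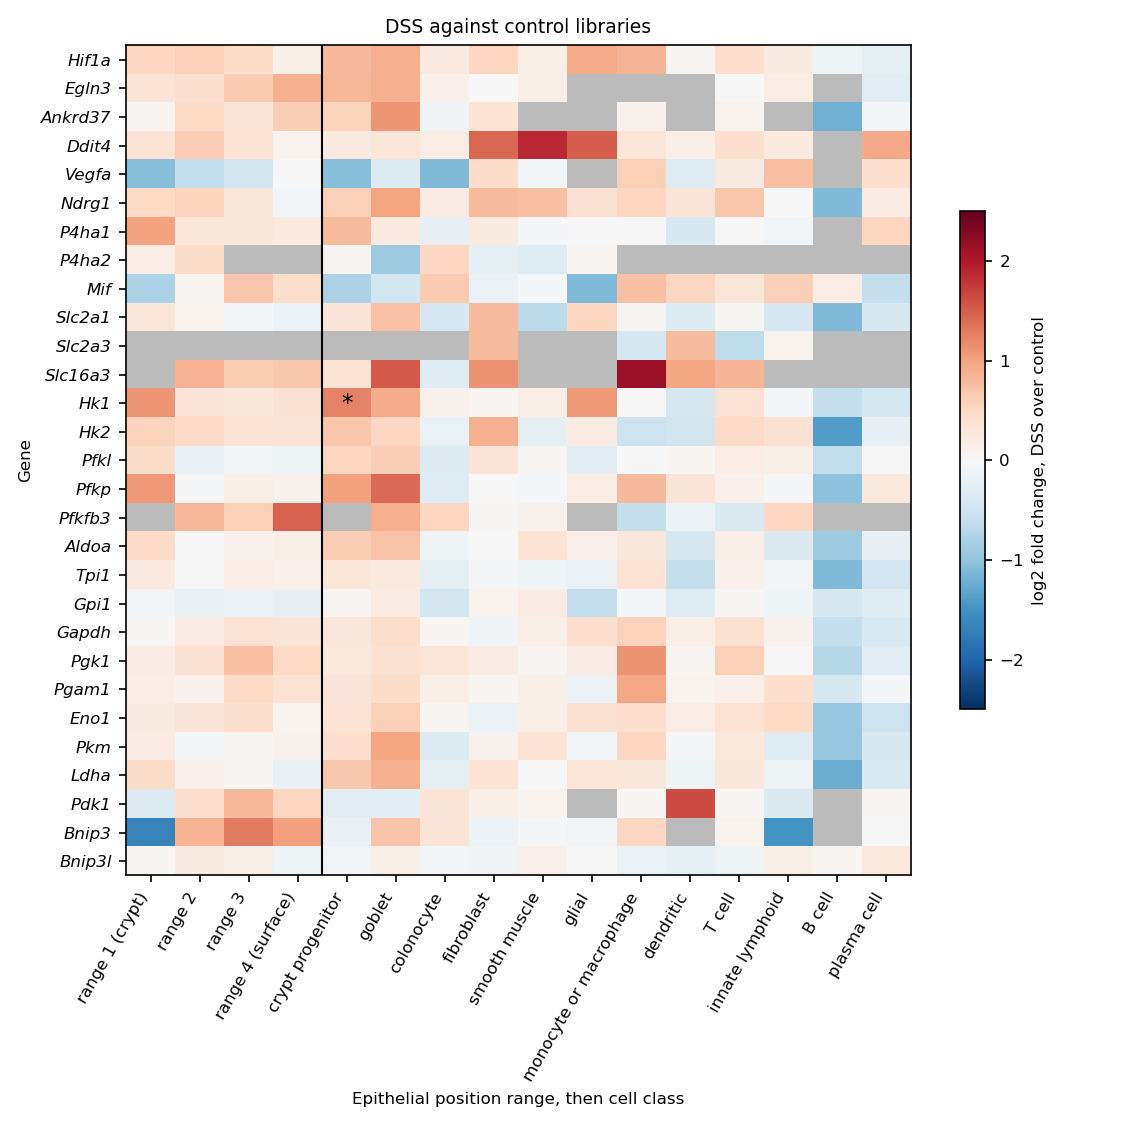
Log2 fold change of DSS over control for the 29 genes (rows) in the 4 position ranges and in 12 cell classes (columns), with red higher in DSS, gray for genes that were not tested and a star for an adjusted p under 0.05. The single star is Hk1 in crypt progenitors.

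Some single members stood out by size in stroma and immune cells without passing. Slc16a3 in monocytes or macrophages had 9.09 and 16.5 CPM in the control libraries and 23.8 and 94.7 CPM in the DSS libraries, a log2 fold change of 2.16 (SE 0.74) with an edgeR adjusted p of 1. The DSS values lay above the control values, but DSS 2 was far above DSS 1. With no filter on low counts the adjusted p was 0.00156, and 2 of 12 alternative settings passed. At resolution 2 a cluster of this class led by Chil3 and Clec4e, genes of recruited monocytes, held 2 and 14 control cells and 209 and 168 DSS cells, and its part in the difference was not tested. Ddit4 in smooth muscle cells had 8.63 and 2.33 CPM in the control libraries and 22.5 and 17.3 CPM in the DSS libraries (log2 fold change 1.89). In all fibroblasts together it had 11.5 and 7.05 CPM in the control libraries and 36.3 and 9.701 CPM in the DSS libraries, where DSS 1 alone was high. Those sums mix clusters whose shares differ between libraries. Within single fibroblast clusters the log2 fold change of Ddit4 was 1.12 to 2.09, and none passed. These members were named after their values were seen.

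Within position ranges no member passed, out of 108 pairs of member and range, at backgrounds of 1.11%, 0%, 0.219% and 0.454% of genes called in ranges 1 to 4 (0.511% higher in range 1 and 0.1% lower in range 3). DESeq2 likewise called 0 of 106. At an unadjusted p under 0.05 there were 5, 2, 5 and 4 members in ranges 1 to 4, against 1511 of 12515, 531 of 13692, 1250 of 10980 and 1030 of 9684 genes. The 4 smallest p-values were those of Hk1, Pfkp and Vegfa in range 1 and Bnip3 in range 4. Range 1 overlaps the progenitor class in cells, so the first 3 repeat the pattern above, with log2 fold changes of 1.10 (SE 0.26), 1.08 (SE 0.26) and -1.07 (SE 0.28, edgeR adjusted p = 0.055, 0.0595 and 0.0897).

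Bnip3 was higher in both DSS libraries than in both control libraries in ranges 2, 3 and 4. Its surface log2 fold change was 1.03 (SE 0.28) with an edgeR adjusted p of 0.217, and in ranges 2 and 3 it was 0.87 and 1.302. Outside the members, Pck1 fell in range 4 by 2.15 on the log2 scale (edgeR adjusted p = 0.0264). In range 1 Slc16a1 rose by 1.27 and Vldlr fell by 2.57 (adjusted p = 0.0248 and 0.0299).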

How the data were processed

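RNA of single mid-colon cells was counted in 4 libraries, 2 control and 2 DSS. The deposited matrices hold whole-number UMI counts per gene and cell barcode, made with Cell Ranger 6.1.1 on GRCm38, per the submitters' processing notes. Total UMI counts per library were 101051573 to 109472082.

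Cells under 500 UMIs or 250 genes, or over 25% mitochondrial UMIs, were left out. Doublets called by Scrublet were removed. The 42351 kept cells were clustered with scanpy 1.11.5 and leidenalg 0.10.2 at resolution 1, without the members and the other genes of the pathway lists, and clusters were named from marker genes. Counts were summed per library over a class, a position range or a compartment (at least 30 cells) and tested with edgeR 4.0.16 (quasi-likelihood, TMM, filterByExpr, R 4.3.3), two-sided, with Benjamini-Hochberg adjustment over all genes and a threshold of 0.05. Contrasts between ranges or compartments had the library as a term. Cells are not replicates. The immune sum leaves out plasma cells. The scripts were tested on simulated data.

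The members and lists were chosen with earlier results of these data known. Named in full are the called members with the 8 smallest p-values per comparison, or, where fewer than 4 were called, the 4 with the smallest p-values. At most 6 called genes of the other lists per comparison are named, besides isoform partners. Alternatives were DESeq2 1.42.0, other size factors, no filter, other ranges and clusters, fewer mitochondrial UMIs, a replicate block and leaving out each library.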

Additional observations from a re-analysis of the deposited data

Results flagged for a closer look

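The gradient from crypt to surface differed between DSS and control for Mif and Pfkp by the test of the difference itself. The log2 difference, DSS minus control, was 1.19 for Mif and -1.06 for Pfkp, and both calls were lost without DSS 1 and without DSS 2. That of Pfkp was also lost with plain UMI totals (-0.92). The DSS crypt sums hold 61 and 126 cells.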

How the results depend on the processing

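The gradients in each group and the compartment contrasts in control kept their counts of calls within 1.5 times under each setting tried. Leaving out each library in turn gave 25 to 26 called members for the control gradient, 24 to 26 for the DSS gradient, 19 to 26 for stroma and 13 to 20 for immune cells. Of single members, 2 were counted as reversed: with plain UMI totals the control gradient was -0.55 for Ddit4 and -0.084 for Pdk1. Others changed sign between settings without being counted as reversed. In control, Egln3 in stroma against epithelium ran from -2.32 to 0.96, and Bnip3 in immune cells against epithelium from -0.84 to 0.61. The counts of DSS calls were less stable. Within classes 1 pair of member and class was called, against 9 with no filter on low counts, 0 with plain UMI totals, 5 with DESeq2, 0 with at most 15% mitochondrial UMIs, 3 at resolution 2, 2 in single clusters and 0 to 2 without each library in turn. Within ranges 0 pairs of member and range were called, against 2 with no filter and 0 to 4 without each library. At most 15% mitochondrial UMIs left range 4 of DSS 1 with too few cells, so the test within range 4 was not run in that setting. The DSS gradient and its difference from control then rest on DSS 2 alone for range 4. For the difference of the gradient 2 were called, against 4 with no filter, 1 with plain totals, 4 with surface landmarks alone, 0 with quartiles within each library, 4 with range 3 in place of range 4 and 0 to 4 without each library. The difference of the compartment contrast gave 0 pairs of member and contrast, and 1 with no filter. The cause of these changes was not tested. Few cells in DSS 1 limit the depth of the epithelial sums.

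The libraries share the numbers 1 and 2 across groups, and the labels do not say what a number marks. Deviations of same-numbered libraries from their group means correlated at 0.105 to 0.567 over genes in 12 classes. With the replicate block 8 pairs of member and class were called and 4 of member and range. They include Pfkp (adjusted p = 0.0198) and Vegfa (0.0216) in progenitors, Hk1 (0.0331) and Pfkp (0.00724) in goblet cells, and Slc16a3 (log2 fold change 2.10, adjusted p = 1.2e-05) in monocytes or macrophages.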

Other observations

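Of the members, 3 of 29 (10.3%) passed a rule of 1.3 times between the libraries of each group, and of 15228 genes with a UMI in each of the 12 compartment sums 3.02% did. Hif1a, Ndrg1 and Slc2a1 were more than 1.3 times higher in the library numbered 2 than in that numbered 1 in 3 of 3 compartments of both groups. The ratio of Slc2a1, the basal glucose carrier, was 4.78 in control and 2.11 in DSS epithelium, 2.38 and 2.54 in stroma and 3.15 and 2.38 in immune cells. Within the position ranges its control ratio was 2.87, 3.32, 1.90 and 1.84 from crypt to surface. Ndrg1 gave 2.96 and 2.95 in epithelium, 2.10 and 3.89 in stroma and 3.96 and 5.46 in immune cells, but 0.975 in range 1 of the DSS libraries. These members were named after their values were seen.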
